A study of Mus musculus with 6 samples.

Results

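Transcripts of 35 collagen, matrix and fibroblast genes were followed in mouse esophagus carrying carcinogen-induced squamous tumors. The genes were taken from a list of symbols (collagen chains, matrix glycoproteins, proteoglycans and fibroblast markers), and all 35 were matched to an Ensembl gene among the 54232 gene IDs listed. They fall into 5 role groups of 6 fibrillar collagens, 7 basement membrane collagens, 7 other collagens, 9 matrix glycoproteins and proteoglycans, and 6 fibroblast markers. All 35 passed the filter on low counts and were among the 15763 genes tested.

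All mice had been given the carcinogen 4-nitroquinoline 1-oxide (4-NQO) at 100 µg/ml in drinking water for 16 weeks from the age of 8 weeks, and then plain water for 12 weeks. In the last 2.5 weeks they received 10 µg of antibody into the peritoneum 2 times per week, and tissue was taken the day after the last dose. One group of 3 libraries came from mice given DTA-1, an agonist antibody to GITR, a costimulatory receptor of T cells, and the other 3 from mice given an isotype control antibody. Both groups therefore carry 4-NQO, no group without it was analysed, and the labels used here give neither strain nor sex. Libraries are named below by group and replicate number (isotype 1 to 3, DTA-1 1 to 3). Whether each library came from a separate mouse is not stated, so each p-value reflects variation among these samples that may be technical in part.

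Fibrillar collagens form the load-bearing fibers of connective tissue. Types I, III and V are made mainly by fibroblasts as procollagen chains that are hydroxylated, folded into a triple helix, secreted, trimmed at both ends and crosslinked by lysyl oxidases. Type IV collagen builds the sheet of basement membranes under epithelium and around vessels, muscle fibers and fat cells, and type VII collagen anchors the epithelial sheet to the stroma below. In squamous carcinomas the stroma around invading epithelium is known for activated fibroblasts that deposit type I and III collagen, periostin and fibronectin.

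The tissue had been peeled and enriched for invading cells, and the libraries held squamous, muscle and stromal transcripts together. Krt13, a keratin of the squamous lining, ranged from 2862 to 20029 CPM (read counts scaled to a common library size), and 24 striated muscle genes took 7.14% to 17.6% of all counts. The 35 genes together took 0.80% of counts in isotype 1, 0.40% and 0.23% in isotype 2 and 3, and 0.22%, 0.25% and 0.46% in DTA-1 1, 2 and 3. Library totals lay between 23147873 and 29065162 reads. On the scaled library sizes used for CPM, 3 reads correspond to 0.108 to 0.141 CPM.

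Isotype 1 stood apart from the other 5 libraries in these genes. It held the highest level of 21 of the 35 (60%, against 25.5% of all tested genes) and exceeded the next library by over 2 times in 10 of them (28.6%, against 1.87% of all tested genes). DTA-1 3 was the highest library for 11 of the 35, and among the libraries other than isotype 1 it was highest for 25 (71.4%, against 23.4% of all tested genes). The lowest level was in DTA-1 1 for 13 genes, in isotype 3 for 11 and in DTA-1 2 for 8. Fold changes between the groups are therefore given with and without isotype 1, a step chosen with the values in view.

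**Figure D1:**
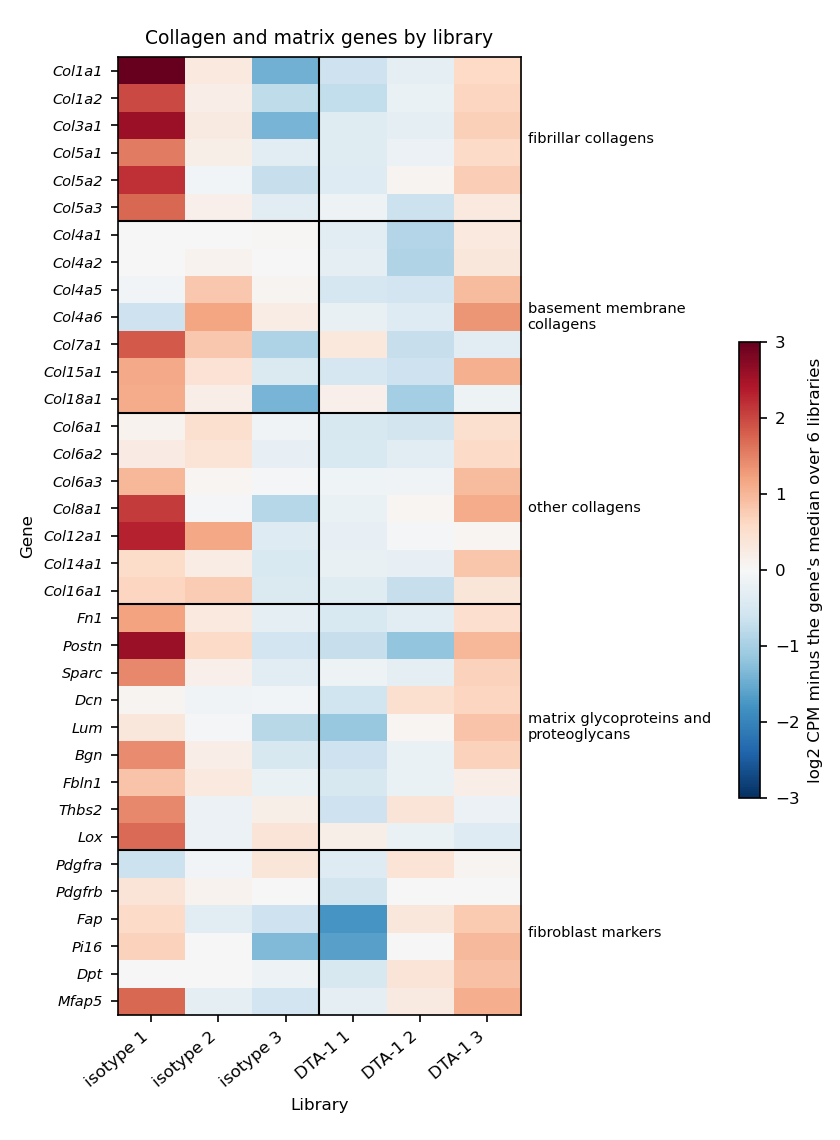
Heat map of the 35 genes (rows, by role group) in the 6 libraries (columns), coloured by log2 CPM minus the gene's own median over the libraries. The isotype 1 column is the highest for all 6 fibrillar collagens, and DTA-1 3 is the next highest for each of them.

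No gene of the set passed edgeR's quasi-likelihood test between the groups. At an adjusted p under 0.05 edgeR called 0 of the 35, against 0 of 15763 tested genes (0%), and the smallest adjusted p of the set was 0.39, for Col12a1. At an unadjusted p under 0.05 edgeR gave 1 of 35, again Col12a1, where 12.7% of all tested genes reached that level. DESeq2 called 0 of the 35 at an adjusted p under 0.05, against 1.24% of the 14512 genes to which it gave an adjusted p. It gave 2 at an unadjusted p under 0.05, Col12a1 and Lox, where 15.1% of the genes tested by edgeR reached that level in DESeq2. In 0 of the 35 did all DTA-1 libraries lie below all isotype libraries (9.38% of tested genes), and in 0 of 35 above them (8.6%). Leaving out DTA-1 1, the library whose removal gave the most calls, edgeR called 3.69% of genes and 0 of the 35.

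The fitted log2 fold changes, DTA-1 over isotype, were negative for 27 genes and positive for 8, with a median of -0.47 beside -0.03 for all tested genes. Without isotype 1 they were negative for 17 and positive for 18, with a median of 0.14 beside 0.02 for all tested genes. These are bulk samples, in which fewer cells of a type and less RNA per cell cannot be told apart.

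**Figure D2:**
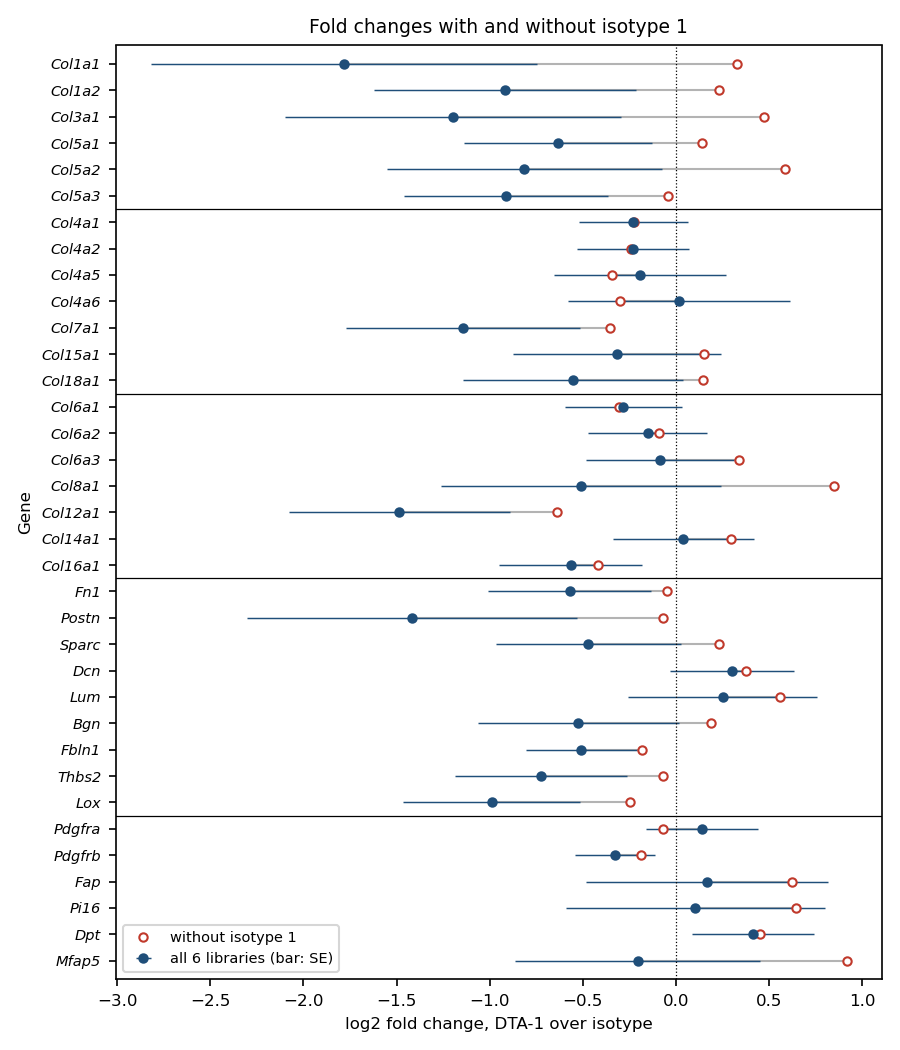
Log2 fold change, DTA-1 over isotype, of each of the 35 genes (x axis), with filled points and bars for the estimate and SE from all 6 libraries and open points for the estimate without isotype 1. The fibrillar collagens lie between -1.78 and -0.63 with all libraries and between -0.04 and 0.59 without isotype 1.

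Sequences before the transcription start are shown for 3 of the genes that were over 2 times higher in isotype 1 than in any other library, since these were high together and their windows overlap no annotated exon. They are the 250 bases upstream of the RefSeq start on GRCm38.p6, 5′ to 3′ on the gene's strand, with capitals marking every match, on either strand, to 3 short words of core promoters. The word CCAAT belongs to the CAAT box. The word TATAAA belongs to the TATA box, and GGGCGG to the GC box. They cover chr1:45311288-45311537 (plus strand) for Col3a1, chr9:20815068-20815317 (minus strand) for Col5a3 and chr3:54360857-54361106 (plus strand) for the second of 2 RefSeq starts of Postn.
Col3a1: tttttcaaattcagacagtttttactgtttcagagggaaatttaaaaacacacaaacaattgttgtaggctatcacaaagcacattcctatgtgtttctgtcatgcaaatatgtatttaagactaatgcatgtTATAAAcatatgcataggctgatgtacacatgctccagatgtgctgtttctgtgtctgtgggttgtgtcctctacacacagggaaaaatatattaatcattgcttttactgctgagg
Col5a3: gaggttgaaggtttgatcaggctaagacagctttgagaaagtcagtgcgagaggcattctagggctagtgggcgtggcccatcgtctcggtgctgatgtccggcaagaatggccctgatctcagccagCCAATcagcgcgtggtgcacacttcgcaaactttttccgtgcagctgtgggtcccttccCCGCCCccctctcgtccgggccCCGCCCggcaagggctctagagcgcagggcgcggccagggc
Postn: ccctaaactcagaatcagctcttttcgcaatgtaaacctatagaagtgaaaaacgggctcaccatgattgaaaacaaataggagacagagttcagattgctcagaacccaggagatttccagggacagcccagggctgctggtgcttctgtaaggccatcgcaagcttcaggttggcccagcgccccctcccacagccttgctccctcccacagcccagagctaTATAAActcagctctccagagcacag
The last base of TATAAA lies 21 bases before the start in Postn and 112 bases before it in Col3a1. The Col5a3 window holds no TATAAA but 1 CCAAT and 2 GGGCGG matches, so these 3 windows share no one of the searched words. Col7a1 and Thbs2 were also over 2 times higher in isotype 1, with windows free of annotated exons, and are not shown. The Col7a1 window held 1 CCAAT and 1 GGGCGG match, and the Thbs2 window 2 CCAAT and 1 TATAAA match. The window of the first RefSeq start of Postn held 0 matches to any of the words. Col1a2, also over 2 times higher in isotype 1, had a window that overlaps annotated exons and held 1 CCAAT and 2 GGGCGG matches. No window was matched for Col1a1, Col5a2, Col12a1 and Lox, which were over 2 times higher there too. RefSeq windows were matched for 24 of the 35 genes, 28 windows in all. Of these, 35.7% held CCAAT, 10.7% TATAAA and 50% GGGCGG, beside 33.9%, 12.4% and 32.7% of 32851 windows of the same length over all genes. A match is a description of these letters and not a binding site.

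Of the 35 genes, Col1a1 and Col3a1 had the widest gaps between isotype 1 and the next library. Col1a1 (chromosome 11, 94936224 to 94953042 on GRCm38) encodes the chain present in 2 copies in each type I collagen molecule and Col1a2 the remaining chain. Col1a1 measured 558, 79.6 and 23.8 CPM in isotype 1, 2 and 3 and 42, 52.8 and 97.4 CPM in DTA-1 1, 2 and 3. Isotype 1 was 5.73 times the next library, DTA-1 3, while isotype 3 was the lowest of all 6, so the DTA-1 values lay inside the isotype range. A log2 fold change for Col1a1 of -1.78 ± 1.04 (SE) was fitted, with an adjusted p of 0.455 by edgeR, and of 0.33 ± 0.57 without isotype 1 (adjusted p = 0.852 by edgeR).

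Col1a2 followed the same order with a smaller excess, at 603, 173 and 89.5 CPM in the isotype libraries and 90.2, 132 and 235 CPM in the DTA-1 libraries. For Col1a2 the log2 fold change was -0.92 ± 0.70 (SE; adjusted p = 0.555 by edgeR) with all libraries and 0.23 without isotype 1. Col3a1, the single chain of the type III collagen that is woven into type I fibers, measured 1122, 229 and 72.4 CPM in isotype 1, 2 and 3 and 148, 158 and 314 CPM in DTA-1 1, 2 and 3. Isotype 1 was 3.57 times DTA-1 3, and the remaining libraries spanned 72.4 to 314 CPM with the groups interleaved. The log2 fold change was -1.20 ± 0.90 (SE; adjusted p = 0.549 by edgeR) and 0.47 ± 0.56 without isotype 1, so that its sign turned as it did for Col1a1 and Col1a2.

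Type V collagen nucleates type I fibers and sets their width. Col5a3, encoding a less common chain of it, measured 34.4, 11.6 and 8.44 CPM in the isotype libraries and 9.44, 6.69 and 12.8 CPM in the DTA-1 libraries, which put isotype 1 at 2.69 times the next library. Its log2 fold change of -0.91 ± 0.55 (SE; adjusted p = 0.469 by edgeR) shrank to -0.04 without isotype 1. Col5a1 and Col5a2, the chains of the common form, ranged from 30.6 to 117 and from 33.1 to 245 CPM, again with isotype 1 highest and DTA-1 3 second. Over all 6 fibrillar genes the median log2 fold change was -0.92, with 6 of 6 negative, and without isotype 1 it was 0.28, with 5 of 6 positive.

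**Figure D3:**
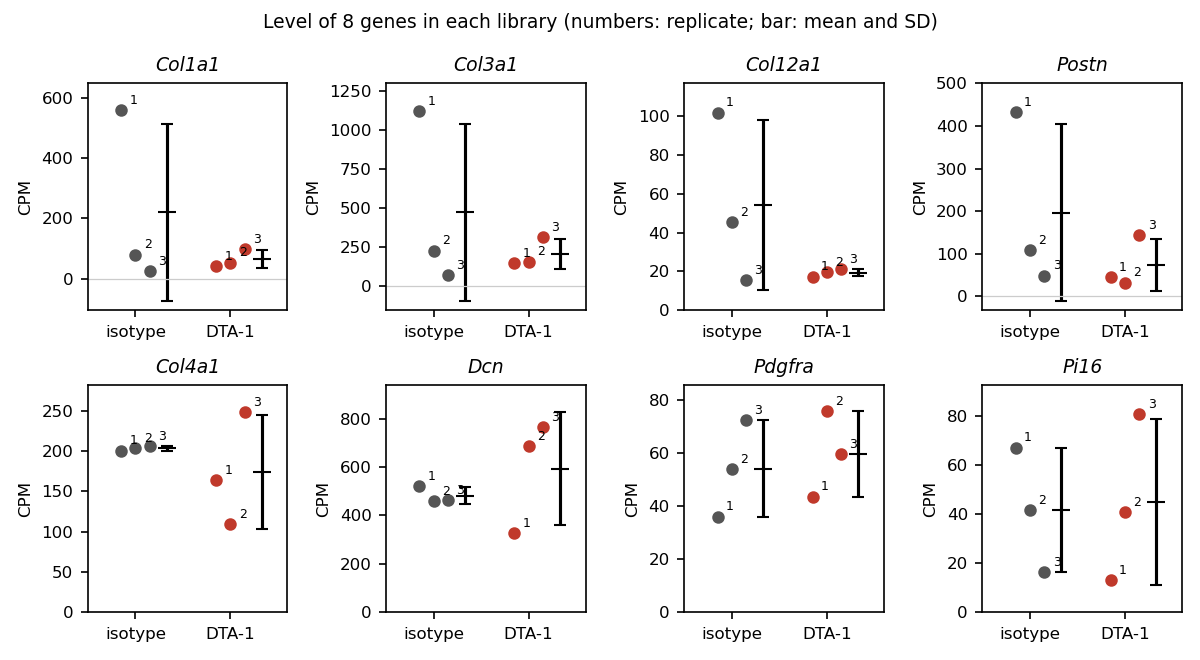
CPM (y axis) of 8 genes in the isotype and DTA-1 libraries, numbered by replicate, with the mean and SD of each group of 3 beside the points. Isotype 1 lies far above the other libraries for Col1a1, Col3a1, Col12a1 and Postn, but not for Col4a1, Dcn, Pdgfra or Pi16.

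Type IV collagen did not share the isotype 1 excess. Col4a1 and Col4a2 encode the 2 chains of the form found in nearly all basement membranes, and on GRCm38 they lie head to head on chromosome 8 with annotated starts that overlap by 22 bases. Col4a1 measured 200.2, 204 and 206 CPM in isotype 1, 2 and 3 and 163, 109 and 249 CPM in DTA-1 1, 2 and 3. The isotype libraries lay within 200.2 to 206 CPM, while the DTA-1 libraries spread on both sides of them. The log2 fold change was -0.23 ± 0.29 (SE; adjusted p = 0.728 by edgeR) and -0.23 ± 0.35 without isotype 1, so this estimate did not rest on that library.

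Col4a2 ran parallel, at 155, 168 and 158 CPM in the isotype libraries and 129, 84.1 and 197 CPM in the DTA-1 libraries. It gave a log2 fold change of -0.23 ± 0.30 (SE; adjusted p = 0.73 by edgeR), and -0.24 without isotype 1. Col4a5 and Col4a6, whose chains combine in basement membranes of smooth muscle and some epithelia, lie side by side on chromosome X with divergent starts 1309 bases apart. Both were highest in DTA-1 3 (36.9 and 29 CPM) and next in isotype 2 (34 and 26.1 CPM), and Col4a6 was lowest in isotype 1 at 7.48 CPM. The smooth muscle list of 10 genes, with Acta2 and Myh11 of the contractile apparatus, was likewise highest in DTA-1 3 and isotype 2 and lowest in isotype 1, with mean log2 CPM of 9.45, 9.12 and 6.40. Its most abundant gene, Des, is in the striated muscle list too, and the other 9 genes gave 8.99, 8.74 and 5.68. Its part in the levels of these 2 chains was not tested.

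The other 3 basement membrane collagens were highest in isotype 1. Col7a1, the anchoring fibril collagen made by keratinocytes and fibroblasts, measured 219, 108 and 32.2 CPM in isotype 1, 2 and 3 and 75.7, 37.8 and 49.1 CPM in DTA-1 1, 2 and 3. Isotype 1 was 2.04 times isotype 2, the next library, and isotype 3 was lowest. For Col7a1 the fitted log2 fold change was -1.14 ± 0.63 (SE; adjusted p = 0.44 by edgeR) and -0.35 ± 0.52 without isotype 1. Against Krt5, a keratin of basal cells in the same library, Col7a1 gave 0.0443, 0.0365 and 0.0196 reads per Krt5 read in isotype 1, 2 and 3 and 0.0246, 0.0347 and 0.0408 in DTA-1 1, 2 and 3. On this ratio isotype 1 and DTA-1 3 were neighbours and the groups overlapped.

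Col18a1, a heparan sulfate-bearing collagen whose end fragment is endostatin, measured 182, 97.3 and 32 CPM in the isotype libraries and 94.1, 42 and 76.3 CPM in the DTA-1 libraries. Isotype 2 and DTA-1 1 came after isotype 1 and nearly level with each other. With all libraries Col18a1 gave a log2 fold change of -0.55 ± 0.59 (SE; adjusted p = 0.669 by edgeR), and 0.14 without isotype 1. Col15a1, its relative in the basement membranes of vessels and muscle, ranged from 12.8 to 42.9 CPM, with isotype 1 and DTA-1 3 high (42.9 and 40.6 CPM) and DTA-1 1, DTA-1 2 and isotype 3 low (13.7, 12.8 and 14.5 CPM). For the 7 basement membrane collagens the median log2 fold change was -0.23 (1 positive, 6 negative), and -0.24 without isotype 1 (2 positive, 5 negative).

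Col12a1 had the smallest p of the 35 genes. It encodes type XII collagen, which coats the surface of type I fibers, and it lies on chromosome 9 from 79598991 to 79718831. It measured 102, 45.5 and 15.6 CPM in isotype 1, 2 and 3 and 17.3, 19.7 and 21.2 CPM in DTA-1 1, 2 and 3. Isotype 1 and 2 were higher than every DTA-1 library, but isotype 3 was the lowest of the 6, and the DTA-1 libraries lay within 17.3 to 21.2 CPM. The log2 fold change was -1.48 ± 0.59 (SE; unadjusted p = 0.0407, adjusted p = 0.39 by edgeR). Without isotype 1 it was -0.64 ± 0.43 (adjusted p = 0.654 by edgeR).

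Type VI collagen forms beaded microfilaments around cells and muscle fibers. Its Col6a1 chain measured 89.5, 116 and 77.2 CPM in the isotype libraries and 59.6, 57.1 and 116 CPM in the DTA-1 libraries, and its Col6a2 chain 109, 121 and 76.6 CPM in the isotype libraries and 66.3, 73 and 137 CPM in the DTA-1 libraries. For both chains isotype 2 and DTA-1 3 were the 2 highest libraries and isotype 1 came next. Their log2 fold changes were -0.28 and -0.15 with all libraries and -0.30 and -0.09 without isotype 1. Col6a3, a longer chain of the same molecule, differed in order from its partners, since isotype 1 (87.3 CPM) and DTA-1 3 (84.7 CPM) were high and the other 4 libraries lay below them, at most at 45.9 CPM.

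Col16a1, a fiber-associated collagen, measured 44.3, 48.1 and 21 CPM in the isotype libraries and 22.2, 17.8 and 36.7 CPM in the DTA-1 libraries and had a log2 fold change of -0.56 ± 0.38 (SE; adjusted p = 0.515 by edgeR), and -0.42 without isotype 1. Col8a1, a short-chain collagen of vessel walls, ranged from 15.2 to 116 CPM with isotype 1 highest, and its log2 fold change turned from -0.51 to 0.85 without that library. Col14a1, another fiber-associated collagen, ranged from 13.3 to 32 CPM with DTA-1 3 highest. Over the 7 other collagens the median log2 fold change was -0.28, with 1 positive and 6 negative, and -0.09 without isotype 1, with 3 positive and 4 negative.

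Among the matrix glycoproteins, Postn stood out by its isotype 1 level. Postn (chromosome 3, 54361109 to 54391037) encodes periostin, a matricellular protein that binds type I collagen and is a known product of activated fibroblasts. It measured 433, 108 and 48.6 CPM in isotype 1, 2 and 3 and 44.9, 32 and 144 CPM in DTA-1 1, 2 and 3. Isotype 1 was 3.01 times DTA-1 3, the next library, and DTA-1 2 was lowest. Its log2 fold change was -1.42 ± 0.89 (SE; adjusted p = 0.486 by edgeR), which became -0.07 ± 0.69 without isotype 1.

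Lox, the lysyl oxidase that starts collagen crosslinking, measured 45, 12.3 and 18 CPM in the isotype libraries and 15.5, 11.9 and 10.5 CPM in the DTA-1 libraries. Isotype 1 was 2.5 times isotype 3, and the other 5 libraries spanned 10.5 to 18 CPM with isotype 2 below DTA-1 1. It had a log2 fold change of -0.99 ± 0.48 (SE; adjusted p = 0.409 by edgeR) and of -0.25 ± 0.29 without isotype 1. Fbln1, encoding fibulin-1 of fibronectin-rich matrix and elastic fibers, measured 97.8, 66.2 and 47.4 CPM in the isotype libraries and 38.9, 47.5 and 62.2 CPM in the DTA-1 libraries, a log2 fold change of -0.51 ± 0.30 (SE; adjusted p = 0.462 by edgeR), and -0.18 without isotype 1. It was highest in isotype 1 and lowest in DTA-1 1, and its groups overlapped through isotype 3.

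Decorin, a small proteoglycan that coats collagen fibers, was not highest in isotype 1. Dcn measured 523, 459 and 463 CPM in isotype 1, 2 and 3 and 327, 687 and 766 CPM in DTA-1 1, 2 and 3, so that its isotype libraries were close together and DTA-1 2 and 3 were the highest and DTA-1 1 the lowest. Its log2 fold change was 0.30 ± 0.33 (SE; adjusted p = 0.679 by edgeR) and 0.38 ± 0.40 without isotype 1. Lum, its neighbour 46984 bases away on chromosome 10 and also a fiber-coating proteoglycan, ranged from 44.7 in DTA-1 1 to 179 CPM in DTA-1 3, with log2 fold changes of 0.25 and 0.56. These were the 2 positive genes of the group.

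Sparc, encoding a collagen-binding protein that chaperones matrix assembly, measured 602, 249 and 176 CPM in the isotype libraries and 198, 185 and 358 CPM in the DTA-1 libraries, with a log2 fold change of -0.47 ± 0.50 (SE; adjusted p = 0.664 by edgeR) that turned to 0.23 without isotype 1. Bgn (biglycan, a proteoglycan), Fn1 (fibronectin, the adhesive scaffold of new matrix) and Thbs2 (thrombospondin-2, a matricellular protein) were also highest in isotype 1. Unlike Sparc, which was lowest in isotype 3, these genes were lowest in DTA-1 1. Their ranges were 134 to 545, 153 to 485 and 19.6 to 81.6 CPM, and their log2 fold changes were -0.52, -0.57 and -0.72, or 0.19, -0.05 and -0.07 without isotype 1. The group's median log2 fold change was -0.52 (2 positive, 7 negative), and -0.05 without isotype 1 (4 positive, 5 negative).

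None of the 6 fibroblast markers was over 2 times higher in isotype 1 than in the next library, whereas 5 of 6 fibrillar collagens were. Pdgfra, a receptor for platelet-derived growth factor and a broad fibroblast marker, measured 36.1, 53.9 and 72.5 CPM in isotype 1, 2 and 3 and 43.7, 75.8 and 59.6 CPM in DTA-1 1, 2 and 3. Isotype 1 was the lowest library for Pdgfra, although it was the highest for every fibrillar collagen. Pdgfra was the only 1 of the 6 markers lowest in isotype 1, and 2 of the 6, Pdgfrb and Mfap5, were highest there. On mean log2 CPM of the 6 markers, isotype 1 at 5.32 came next after DTA-1 3 at 5.50. Pdgfra had a log2 fold change of 0.14 ± 0.30 (SE; adjusted p = 0.842 by edgeR), or -0.07 ± 0.28 without isotype 1. Within a library, Col1a1 gave 15.5 reads per Pdgfra read in isotype 1, against 1.48 and 0.328 in isotype 2 and 3 and 0.961, 0.696 and 1.63 in DTA-1 1, 2 and 3. These ratios do not depend on library scaling, and isotype 1 is the highest in them as well. Per Dcn read, Col1a1 gave 1.07 reads in isotype 1 and 0.0513 to 0.173 in the other 5 libraries.

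Pdgfrb, the related receptor of pericytes and fibroblasts, measured 29.6, 24.2 and 22.4 CPM in the isotype libraries and 15.5, 22.3 and 22.9 CPM in the DTA-1 libraries, a narrow span in which DTA-1 1 was lowest. It had a log2 fold change of -0.33 ± 0.21 (SE; adjusted p = 0.502 by edgeR), and -0.19 without isotype 1. Fap, a surface protease of activated fibroblasts, was low throughout, at 5.05, 2.68 and 2.2 CPM in the isotype libraries and 1.0, 4.29 and 5.86 CPM in the DTA-1 libraries. Isotype 1 and DTA-1 3 had the most Fap and DTA-1 1 the least, and the log2 fold change was 0.17 ± 0.65 (SE; adjusted p = 0.919 by edgeR), or 0.62 without isotype 1.

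Pi16 and Dpt mark fibroblasts of the adventitia and loose connective tissue. Pi16, a peptidase inhibitor, measured 66.9, 41.6 and 16.4 CPM in isotype 1, 2 and 3 and 13.3, 40.7 and 80.4 CPM in DTA-1 1, 2 and 3. Both groups held a high, a middle and a low library for it, and the log2 fold change was 0.10 ± 0.69 (SE; adjusted p = 0.955 by edgeR), or 0.64 without isotype 1. Dpt, encoding dermatopontin, a small collagen-binding matrix protein, measured 174, 176 and 157 CPM in the isotype libraries and 125, 229 and 321 CPM in the DTA-1 libraries. DTA-1 2 and 3 were above all isotype libraries and DTA-1 1 below them, for a log2 fold change of 0.42 ± 0.33 (SE; adjusted p = 0.566 by edgeR) that was 0.45 ± 0.40 without isotype 1. Mfap5, a microfibril protein, ranged from 12.6 CPM in isotype 3 to 62.7 CPM in isotype 1, and its log2 fold change turned from -0.21 to 0.92 without isotype 1. Over the 6 markers the median log2 fold change was 0.12 (4 positive, 2 negative), and 0.54 without isotype 1 (4 positive, 2 negative).

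Levels were compared between genes only per kilobase of the principal transcript. On mean CPM per kilobase over the 6 libraries, Dcn was highest at 306, followed by Sparc at 128, Dpt at 114 and Bgn at 108. The fibrillar chains ran from 61.2 for Col3a1 through 41.2 for Col1a2 and 24 for Col1a1 to 2.27 for Col5a3. Fap was the lowest of the 35 at 1.28. Col3a1, the highest collagen chain on this scale, came 5 of 35 with all libraries. Without isotype 1 it was 33.1 and came 6, after Lum at 38.9, while Col1a2 was 26.9 and Col1a1 9.97. Dpt at 116.9 then came before Sparc at 101.4, and Dcn (307) and Fap (1.17) kept the highest and lowest place.

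Chains that share a molecule (type I, IV and VI) and Col3a1 with Col1a1, of fibers that intertwine, were compared as read-count ratios within each library, with a two-sided exact permutation test over the 6 libraries. With 3 libraries against 3 the smallest p this test can give is 0.1, and adjusted values cover the 4 ratios tested. Col1a1 over Col1a2 was 0.926, 0.460 and 0.266 in isotype 1, 2 and 3 and 0.465, 0.398 and 0.414 in DTA-1 1, 2 and 3. The 3 DTA-1 ratios lay inside the isotype range, with a mean log2 difference of -0.19, an exact p of 0.8 and an adjusted p of 0.9. Isotype 1 was the highest library on this ratio too, and the only one in which the chains came near equal read counts.

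Col4a1 over Col4a2 was nearly fixed, between 1.21 and 1.31 in every library, with a mean log2 difference of 0.01 (exact permutation p = 0.9, adjusted p = 0.9). Col6a1 over Col6a2 was 0.824, 0.957 and 1.01 in the isotype libraries and 0.898, 0.782 and 0.847 in the DTA-1 libraries (mean log2 difference -0.14, exact permutation p = 0.3, adjusted p = 0.6). Col3a1 over Col1a1 was 2.01, 2.88 and 3.04 in isotype 1, 2 and 3 and 3.53, 2.996 and 3.23 in DTA-1 1, 2 and 3 (mean log2 difference 0.32, exact permutation p = 0.2, adjusted p = 0.6). Isotype 1 had the lowest share of Col3a1 against Col1a1, and isotype 3 overlapped with DTA-1 2. An adjusted p of 0.05 is out of reach of this test for all 4 ratios. Without isotype 1 the mean log2 differences were 0.28 for Col1a1 over Col1a2, 0.02 for Col4a1 over Col4a2, -0.22 for Col6a1 over Col6a2 and 0.13 for Col3a1 over Col1a1. Without a test, Col4a5 over Col4a6 was 2.45 in isotype 1 and 1.27 to 1.49 in the other libraries.

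**Figure D4:**
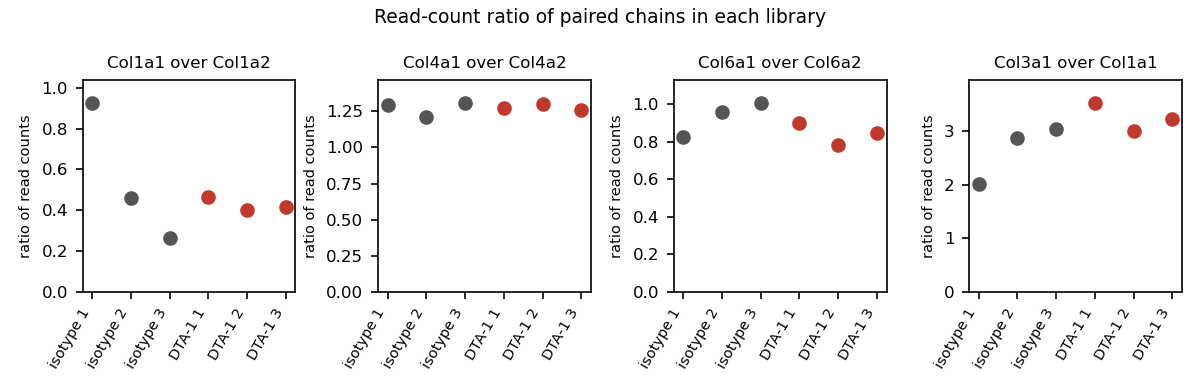
Ratio of read counts of 2 chains (y axis, from 0) in each of the 6 libraries, 1 panel for each of the 4 chain pairs. Col4a1 over Col4a2 stays between 1.21 and 1.31, while Col1a1 over Col1a2 runs from 0.266 in isotype 3 to 0.926 in isotype 1.

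The genes that process, bind and take up collagen were read from the same fit, in 4 lists of 55 genes that are no members of the set. By edgeR 0 of 55 passed an adjusted p of 0.05, and 4 were at an unadjusted p under 0.05, beside 12.7% of all tested genes. DESeq2 called 0 and gave 7 at an unadjusted p under 0.05, beside 15.1% of all tested genes. All DTA-1 libraries lay below all isotype libraries for 4 of the 55 and above them for 1, beside 9.38% and 8.6% of all tested genes. Of the 24 collagen processing genes, 8 had positive and 16 negative log2 fold changes (median -0.13), and without isotype 1 the split was 16 positive and 8 negative (median 0.20). Isotype 1 held the highest level of 15 of these 24. The 2 with the smallest p pointed in opposite directions.

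Ppib, a proline isomerase of procollagen folding, measured 45.2, 40.8 and 39.5 CPM in the isotype libraries and 35.4, 24.2 and 24.2 CPM in the DTA-1 libraries, and its groups did not overlap. The fitted log2 fold change of Ppib was -0.58 ± 0.20 (SE; adjusted p = 0.39 by edgeR), and -0.51 without isotype 1. Without DTA-1 1 it passed the threshold, with a log2 fold change of -0.79 ± 0.14 (SE; adjusted p = 0.0474 by edgeR). In that setting edgeR called 1 of the 55 pathway genes, beside 3.69% of all tested genes. Tgm2, a transglutaminase that crosslinks matrix proteins, measured 391.9, 267 and 406 CPM in the isotype libraries and 515, 580.0 and 532 CPM in the DTA-1 libraries, again without overlap and with all DTA-1 libraries higher. For Tgm2 the log2 fold change was 0.61 ± 0.23 (SE; adjusted p = 0.39 by edgeR), and 0.70 without isotype 1.

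In the list of 11 basement membrane partners, 7 log2 fold changes were positive and 4 negative, with a median of 0.03, and without isotype 1 there were 6 and 5, with a median of 0.04. Agrn, the heparan sulfate proteoglycan agrin, measured 133, 106 and 61 CPM in the isotype libraries and 56.5, 44.9 and 42.1 CPM in the DTA-1 libraries, with all DTA-1 libraries below all isotype libraries. It gave -1.07 ± 0.29 (SE; adjusted p = 0.39 by edgeR) and -0.80 without isotype 1. Lama5, a laminin chain of epithelial and endothelial basement membranes, measured 94, 99.8 and 88.5 CPM in the isotype libraries and 85.3, 63.8 and 74.1 CPM in the DTA-1 libraries, with the same separation, and a log2 fold change of -0.34 ± 0.16 (SE; adjusted p = 0.405 by edgeR), or -0.33 without isotype 1. The squamous epithelium list of 19 genes was also lower in the DTA-1 libraries, with mean log2 CPM of 9.02 to 9.22 in the isotype libraries and 8.74, 7.37 and 7.30 in DTA-1 1, 2 and 3. The part of that list in the Agrn and Lama5 levels was not tested.

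Of the 9 collagen receptors and uptake genes, 3 were positive and 6 negative (median -0.03), or 4 and 5 without isotype 1 (median -0.01). Ddr1, a receptor tyrosine kinase of epithelial cells that binds collagen, measured 199, 196 and 118 CPM in the isotype libraries and 120.3, 86.7 and 79.8 CPM in the DTA-1 libraries, with isotype 3 just below DTA-1 1. Ddr1 had a log2 fold change of -0.84 ± 0.26 (SE; adjusted p = 0.39 by edgeR), or -0.71 without isotype 1. Itga11, the fibroblast integrin chain for fibrillar collagen, measured 4.42, 4.26 and 4.51 CPM in the isotype libraries and 4.13, 7.49 and 9.28 CPM in the DTA-1 libraries, with a log2 fold change of 0.66 ± 0.34 (SE; adjusted p = 0.422 by edgeR), or 0.68 without isotype 1. Its 3 isotype libraries were nearly level, so the isotype 1 excess of the fibrillar collagens was not seen for this receptor chain.

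Of the 11 elastic fiber genes, 5 were positive and 6 negative with all libraries (median -0.11), and 10 were positive and 1 negative without isotype 1 (median 0.09). Fbln5, which organizes elastin on microfibrils, measured 16.2, 21.5 and 27.4 CPM in the isotype libraries and 31.3, 38.2 and 24.6 CPM in the DTA-1 libraries, lowest in isotype 1, with a log2 fold change of 0.53 ± 0.25 (SE; adjusted p = 0.407 by edgeR), or 0.37 without isotype 1. Ltbp2, a microfibril protein, measured 20.9, 2.6 and 1.26 CPM in the isotype libraries and 1.43, 1.6 and 6.59 CPM in the DTA-1 libraries, so that isotype 1 was again far above the rest. Its log2 fold change turned from -1.36 ± 1.11 (SE; adjusted p = 0.575 by edgeR) to 0.75 without isotype 1.

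Markers of other cells varied between the libraries beside these genes. The mean log2 CPM of the fibrillar collagens was 8.07, 6.05 and 5.06 in isotype 1, 2 and 3 and 5.44, 5.63 and 6.47 in DTA-1 1, 2 and 3. Smooth muscle was lowest in isotype 1, where they were highest, at 6.40 against 6.73 to 9.45 elsewhere. The 10 adipocyte markers, of which 9 were tested, were lowest in isotype 1 too, at 3.32 against 4.62 to 6.67. Yet DTA-1 3, next highest for the fibrillar collagens, was the highest library for both of these lists, at 9.45 and 6.67. On the same mean the 10 macrophage markers were highest in isotype 1 at 5.74 and lowest in isotype 3 at 4.00, the library with the lowest fibrillar level. As a share of counts they were highest in DTA-1 2, at 0.126% against 0.122% in isotype 1. Lyz2 alone measured 1173 CPM in DTA-1 2 and 643 CPM in isotype 1. Isotype 1 also had the lowest mean log2 CPM of 24 striated muscle genes, 9.96 against 10.1 to 11.2. As a share of counts, however, these genes were lowest in isotype 2, at 7.14%, with isotype 1 at 8.79%. Other lists spanned 4.84 to 5.69 for pericyte, 4.30 to 5.05 for endothelium, 2.98 to 4.10 for Schwann cell, -0.43 to 3.19 for mesothelium and 3.50 to 8.50 for red cell markers, with isotype 1 at 4.84, 4.46, 2.98, 0.71 and 3.57.

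Of these lists, 2 of 10 macrophage and 22 of 24 striated muscle genes had positive log2 fold changes, as did 6 of 10 smooth muscle genes, 9 of 9 tested adipocyte genes and 0 of 19 squamous genes, and 0 in any of them were called by edgeR. Without isotype 1 the positive genes were 6 of 10 macrophage, 22 of 24 striated muscle, 3 of 10 smooth muscle, 8 of 9 adipocyte and 1 of 19 squamous genes, again with 0 called, so the macrophage and smooth muscle majorities turned. Cartilage, another source of collagen, gave a summed level of 2.78 to 5.13 CPM over its 8 markers. Its defining markers Matn1 and Col9a1 had no reads in any library, which allows up to 0.108 to 0.141 CPM, and Col2a1 stayed at or below 0.478 CPM. The 2 cartilage markers that were tested, Col11a2 and Comp, ranged from 1.77 to 3.72 and from 0.453 to 1.41 CPM. Their log2 fold changes were 0.51 and 0.84, or 0.72 and 0.82 without isotype 1, and 0 were called by edgeR. The part of smooth muscle, fat, macrophage, striated muscle or squamous content in the collagen levels was not tested.

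**Figure D5:**
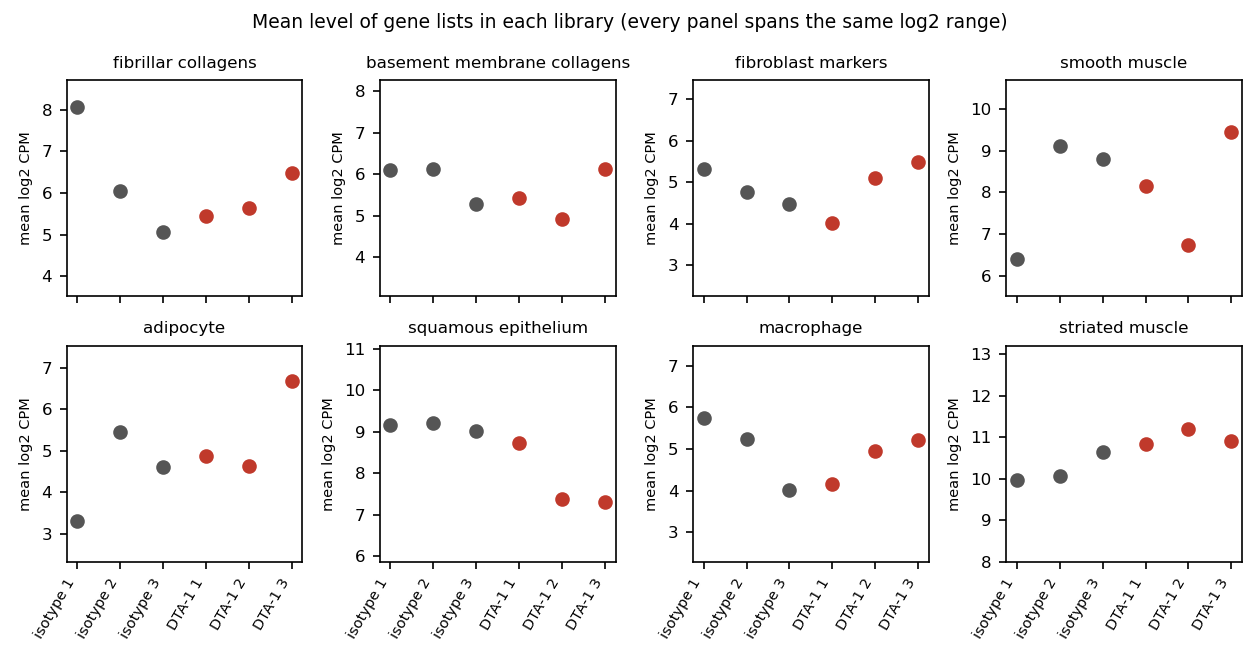
Mean log2 CPM (y axis) of 3 of the role groups and of 5 marker lists for other cells in each library (isotype grey, DTA-1 red), each panel spanning the same log2 range. Isotype 1 is the highest for fibrillar collagens (8.07) and macrophage markers (5.74) and the lowest for smooth muscle (6.40), adipocyte (3.32) and striated muscle (9.96) markers.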

How the data were processed

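The deposited files hold whole-number read counts per Ensembl gene, 1 file per library, without normalization by the authors. Per the submitters' processing notes, the tools were DESeq2 1.14.1, HTSeq 0.6.1p1, STAR and cutadapt 1.13, with mm10 as the genome build, and how the counting treated strand is not given there. Reads of genes that overlap on opposite strands, such as the first 22 bases of Col4a1 and Col4a2, therefore cannot be assigned with certainty.

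Symbols, positions and transcript lengths came from GENCODE M21 (GRCm38, the assembly named mm10), and upstream sequences from RefSeq. Genes past filterByExpr by group were scaled by TMM. This filter asks for the CPM of 10 reads at the median library size in at least 3 libraries, and for 15 reads in total. The edgeR 4.0.16 quasi-likelihood test with robust fitting (R 4.3.3) compared the treatments, and p-values were adjusted by Benjamini and Hochberg's method over 15763 genes, with a threshold of 0.05. The SE beside an edgeR log2 fold change was derived from that test, as the absolute log2 fold change divided by the square root of its F statistic. DESeq2 1.42.0, limma-voom (limma 3.58.1), other scalings and filters, a replicate block and leaving out each library were alternatives, 15 in all. Log2 CPM for list means used a prior count of 2. Library totals of 23147873 to 29065162 reads set the counting error, and reads without molecular identifiers are not independent molecules, so floors cover counting error only. Libraries of every pair differed beyond sampling noise (smallest median chi-square per gene 3.91 against 0.455 for noise alone).

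The 35 genes and all lists were chosen with earlier results of these data known. Values in every library are given for the 2 genes with the smallest p and the 2 with the highest mean CPM of each role group, for Col1a1, Col4a1, Postn, Pdgfra, Fap and Pi16 in any case, and for the 2 with the smallest p of each pathway list. Same-numbered libraries of the 2 groups did not deviate together, so the numbers were not taken as pairs, and the labels name no batch.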

Additional observations from a re-analysis of the deposited data

How the results depend on the processing

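No gene of the 35 was called under any of the 15 alternatives, whose smallest adjusted p was 0.116 (Dpt, without DTA-1 1). Library totals alone moved the median of all tested genes from -0.03 to -0.19. That scaling gave log2 fold changes of -0.15 for Col4a6, -0.13 for Col14a1, -0.01 for Pdgfra, -0.01 for Fap and -0.08 for Pi16, each positive in the main analysis. Limma-voom turned Col4a6 (-0.00), Fap (-0.08), Pi16 (-0.02) and Mfap5 (0.08). The replicate block turned Col14a1 (-0.01), Pi16 (-0.02) and Mfap5 (0.14) and called 0 genes. It left 1632 genes at an unadjusted p under 0.05. Same-numbered libraries correlated in their deviations at 0.02, -0.33 and -0.09, and the labels tie no number to a shared mouse or day. The cause of these turns was not tested.

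Leaving out 1 library at a time, the median log2 fold change lay between -0.74 and 0.14 for all 35 genes, -1.27 and 0.28 for fibrillar collagens, -0.74 and 0.02 for basement membrane collagens, -0.69 and -0.09 for other collagens, -0.83 and -0.05 for glycoproteins and proteoglycans, and -0.37 and 0.54 for fibroblast markers. The log2 fold change of a gene turned for 14 genes without isotype 1, and for 2 to 5 genes without any other single library. The ranges of the genes that turned were -2.29 to 0.33 for Col1a1, -1.37 to 0.23 for Col1a2, -1.68 to 0.47 for Col3a1, -0.96 to 0.14 for Col5a1, -1.22 to 0.59 for Col5a2, -0.58 to 0.02 for Col4a1, -0.59 to 0.02 for Col4a2, -0.87 to 0.15 for Col4a5, -0.74 to 0.61 for Col4a6, -1.07 to 0.15 for Col15a1 and -0.95 to 0.14 for Col18a1. They were -0.55 to 0.04 for Col6a2, -0.53 to 0.34 for Col6a3, -1.02 to 0.85 for Col8a1, -0.40 to 0.30 for Col14a1, -0.83 to 0.23 for Sparc, -0.31 to 0.62 for Lum, -0.98 to 0.19 for Bgn, -0.07 to 0.43 for Pdgfra, -0.32 to 0.62 for Fap, -0.63 to 0.64 for Pi16, -0.65 to 0.92 for Mfap5 and -2.44 to 0.75 for Ltbp2. The chain ratio differences ran from -0.62 to 0.28 for Col1a1 over Col1a2, -0.03 to 0.03 for Col4a1 over Col4a2, -0.22 to -0.08 for Col6a1 over Col6a2 and 0.13 to 0.43 for Col3a1 over Col1a1. The count of called pathway genes was 0 to 1, the 1 being Ppib without DTA-1 1, a setting in which 3.69% of all tested genes were called. The lowest value of the 35 genes, Fap in DTA-1 1, rested on 23 reads, and the effect of depth was not tested.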

Other observations

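Isotype 1 was also apart from the other libraries in genes outside the set, chosen here after their values were seen. At 10 CPM or more and over 4 times the next library, 30 genes stood apart in isotype 1, against 3 in isotype 2, 12 in isotype 3, 1 in DTA-1 1, 16 in DTA-1 2 and 8 in DTA-1 3. Col1a1 was the only one of the 35 collagen and matrix genes among the 30. Spp1, encoding osteopontin, measured 178 CPM in isotype 1 and 1.23 to 3.25 CPM elsewhere, which is 54.8 times the next library. Mmp12, the macrophage elastase, measured 185 CPM in isotype 1 against at most 4.04 CPM. Cthrc1, a secreted collagen triple helix repeat protein known from collagen-producing fibroblasts, measured 19.6 CPM against at most 1.65 CPM. Ctsk, the collagen-degrading protease cathepsin K, measured 50.5 CPM against at most 9.97 CPM, and the transcription factor Runx2 18.1 CPM against at most 4.15 CPM. Neutrophil-attracting chemokines were among the 30 as well, with Cxcl5 at 62.3 CPM against at most 10.9 CPM and Cxcl3 at 27.6 CPM against at most 5.09 CPM. Genes of other kinds were among them too. Stra6 measured 195 CPM in isotype 1 against at most 15.5 CPM and Gabrp 87.1 CPM against at most 9.14 CPM. Vnn1 measured 50.2 CPM against at most 3.49 CPM, and the keratin gene Krt90 63.9 CPM against at most 8.51 CPM.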
